A study of Homo sapiens with 4 samples.

Results

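The genes described here build the adhesive cores and cytoplasmic plaques of desmosomes and hemidesmosomes. The 10 members were fixed by name and taken from the deposited gene table of 58735 genes: the desmosomal cadherins DSG2, DSC2 and DSC3, the armadillo proteins JUP, PKP2, PKP3 and PKP4, the plakins DSP and PLEC, and the tetraspan membrane protein PERP. All 10 were present in the table, 9 had counts, and 8 reached the level set for testing, 1 FPKM or more in 2 or more libraries. FPKM is a count divided by the gene's exonic length and by the size of its library, so that genes of different length can be compared. Earlier results for the same comparison were known when the members were picked, so their differences between groups are given as descriptions, without p-values.

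The libraries came from H1299, an established line of human non-small cell lung carcinoma without functional p53, grown in RPMI1640 with fetal bovine serum and otherwise untreated. A wild-type group (2 libraries) was compared with cells in which TTC28 had been targeted by CRISPR/Cas9, here called the knockout (2 libraries). The labels name no guide, do not say whether the knockout was a clone or a pool, and do not say that replicates were separate cultures. P-values of companion genes therefore measure only the spread between these libraries, which may be technical.

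Desmosomes are spot junctions that tie the intermediate filaments of neighbouring cells together. Desmogleins and desmocollins, the desmosomal cadherins, bridge the gap between cells. Their tails bind plakoglobin (the product of JUP) and plakophilins, and desmoplakin (DSP) couples that plaque to keratin or vimentin filaments. Hemidesmosomes anchor epithelial cells to the basement membrane through an integrin of the ITGA6 and ITGB4 chains, with plectin (PLEC) as the link to keratins. Simple epithelia mostly use DSG2, DSC2 and PKP2, while DSC3, DSG1, DSG3 and PKP1 belong mainly to stratified epithelia.

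Library totals lay between 25120500 and 28885443 counts, and mitochondrial genes took 5.87% to 6.07% of counts in wild type and 8.61% to 10.2% in the knockout. TTC28 was still transcribed, at 4.88 and 5.44 FPKM in the wild-type libraries and 2.96 and 2.99 FPKM in the knockout libraries. The labelled origin was checked against defining markers. KRT8 and KRT18, keratins of simple epithelia, were at 23.7 to 42.0 FPKM and 138 to 170 FPKM over the 4 libraries, but CDH1 had 1 count in all and EPCAM stayed at or below 0.214 FPKM. The mesenchymal markers VIM, CDH2 and ZEB1 were expressed, at 300.0 to 366 FPKM, 8.46 to 10.6 FPKM and 4.31 to 4.81 FPKM. FN1, which encodes the matrix protein fibronectin, fell from 3.08 and 3.38 FPKM in wild type to 1.19 and 1.35 FPKM in the knockout (log2 fold change -1.34, SE 0.0895, edgeR adjusted p = 1.12e-07). The summed level of 5 fibroblast markers was 0.193 to 0.339 FPKM in wild type and 0.470 to 0.552 FPKM in the knockout. COL1A1 made up most of it, at 0.174 FPKM on average in wild type and 0.437 FPKM in the knockout. COL3A1 and DCN were lower in the knockout and PDGFRB overlapped. That of 5 blood and endothelial markers was 0.107 to 0.136 FPKM, with the fibroblast marker LUM and the blood marker CD3E at 0. Of 6 keratinocyte markers, KRT5, KRT14 and KRT1 were at 0 and KRT10 made up nearly the whole sum, 9.48 to 10.1 FPKM in wild type and 3.97 to 6.0 FPKM in the knockout. The summed level of 5 epithelial markers, almost all KRT8 and KRT18, was 162 to 168 FPKM in wild type and 198 to 212 FPKM in the knockout, and that of 4 mesenchymal markers, almost all VIM, was 317 to 332 FPKM and 370 to 381 FPKM, although FN1 fell and ZEB1 did not pass. The part of these shifts in the members' differences was not tested.

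The start-site regions of JUP, DSP and DSG2 are shown because these were the tested members with the highest knockout-to-wild-type ratios. Each is the 250 bases before the first start site listed by RefSeq (GRCh38.p14), read on the gene's own strand, at chr17:41786712-41786961 (minus strand), chr6:7541421-7541670 (plus strand) and chr18:31497927-31498176 (plus strand). The outermost start of each gene in the deposited table lies inside its window. Capitals mark every match to the letters searched.
JUP: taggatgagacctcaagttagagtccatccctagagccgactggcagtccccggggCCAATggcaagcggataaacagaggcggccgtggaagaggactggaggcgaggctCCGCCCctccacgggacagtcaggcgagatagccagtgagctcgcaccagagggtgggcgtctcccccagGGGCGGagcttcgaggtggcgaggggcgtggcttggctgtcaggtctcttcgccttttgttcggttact
DSP: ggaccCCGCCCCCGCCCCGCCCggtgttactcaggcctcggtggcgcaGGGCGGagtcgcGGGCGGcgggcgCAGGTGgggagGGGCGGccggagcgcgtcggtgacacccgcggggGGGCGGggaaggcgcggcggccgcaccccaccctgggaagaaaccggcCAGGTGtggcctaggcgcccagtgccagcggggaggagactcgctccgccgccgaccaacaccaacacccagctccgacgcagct
DSG2: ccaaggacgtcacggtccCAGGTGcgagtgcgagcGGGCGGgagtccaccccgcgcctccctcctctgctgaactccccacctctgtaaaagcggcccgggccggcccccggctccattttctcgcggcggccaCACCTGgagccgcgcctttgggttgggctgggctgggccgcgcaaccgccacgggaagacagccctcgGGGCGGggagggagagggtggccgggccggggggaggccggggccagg
The letters searched, on both strands and with overlaps counted, were GGGCGG (the GC box), CAGGTG (an E-box bound by Snail and ZEB repressors), CCAAT (the CCAAT box), TGANTCA (AP-1), AACNGGTT (Grainyhead factors) and TATAAA (the TATA box). DSP had 7 GC boxes, some of them overlapping, and JUP and DSG2 had 2 each. CAGGTG was found 2 times in DSP, 2 times in DSG2 and 0 times in JUP, and JUP alone of these genes held a CCAAT box. Over all 35116 RefSeq windows of this length, 42.6% held GGGCGG, 17.5% held CAGGTG and 32.0% held the CCAAT box. These 3 regions had no match for AP-1 (in 6.57% of all windows), Grainyhead (1.49%) or TATA box letters (10.7%). These 3 regions held 63.6%, 78.0% and 75.2% G and C in the order shown, against a median of 58.0% over all windows. Of the 10 members, 7 had a RefSeq window, with 10 windows in all, and only the first listed window of each gene was searched. Among the other members with one, PKP4 held 3 CCAAT boxes and 3 GC boxes, and PERP held 5 GC boxes and an AP-1 match. DSC2 held 1 CAGGTG and 1 GC box, and DSC3 held 1 CCAAT box and no GC box or CAGGTG. A match describes the letters only.

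The members covered a wide range of levels. PLEC was the most abundant per length in both groups, followed by PERP, while DSC2 stayed below 1 FPKM in every library and DSC3 had no count. In wild type the mean levels after PERP (35.1 FPKM) ran from PKP4 (15.3 FPKM) through DSG2 (13.3 FPKM), DSP (12.1 FPKM), PKP3 (6.03 FPKM), JUP (2.43 FPKM) and PKP2 (2.42 FPKM) to DSC2 (0.378 FPKM). JUP and PKP2 overlapped in wild type, and their order switched between its libraries. DSG2 lay above DSP in each wild-type library (DSP at 0.902 and 0.929 of DSG2), although the lowest DSG2 and the highest DSP value were both 12.8 FPKM. In the knockout the order changed to DSP (21.9 FPKM), DSG2 (21.7 FPKM), PKP4 (17.5 FPKM), JUP (8.98 FPKM), PKP3 (8.65 FPKM), PKP2 (3.76 FPKM) and DSC2 (0.868 FPKM) below PERP (42.8 FPKM). There the ranges of JUP and PKP3 overlapped, and those of DSP and DSG2 lay apart by less than 1 FPKM.

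**Figure D1:**
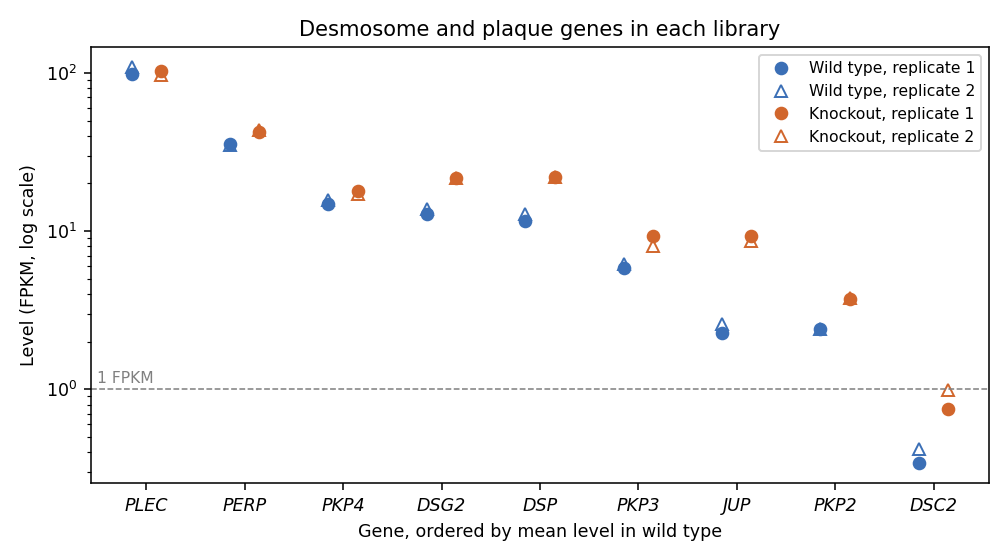
Level of each member with counts in each library, in FPKM on a log axis, with genes ordered by their mean in wild type, circles for replicate 1 and triangles for replicate 2. PLEC overlaps between groups near 100 FPKM, JUP moves from 2.28 and 2.59 to 9.26 and 8.69 FPKM, and DSC2 stays under the dashed line at 1 FPKM; DSC3, at 0, is not drawn.

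Of the 8 tested members, 7 were past the threshold in edgeR's quasi-likelihood test (Benjamini-Hochberg adjusted p under 0.05), each higher in the knockout. Over all 13079 tested genes, 50.3% were past it of which 25.1% higher and 25.2% lower (shares of all tested), but this contrast was known when the members were picked, so nothing is read from the members' count. In limma on log2 values of FPKM rescaled to TPM (a fixed sum per library), 25.5% of all calls were higher. With mitochondrial genes left out of both the library totals and the test, 6653 genes were past the threshold, out of fewer than 13079. So were 7 of the 8 members, and nothing is read from that count either. The median log2 fold change of the 8 tested members was 0.58, and that of all tested genes was -7.07e-05. The FPKM ranges of the groups lay apart, with the knockout above, for 7 of the 8 tested members and also for DSC2. Of all tested genes 37.6% lay apart in that direction.

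Among the cadherins, DSG2 was the only desmoglein with more than 1 count in any library. DSG2 (ENSG00000046604, hg38 chromosome 18, 31498043 to 31549008, plus strand) encodes desmoglein 2, the most widespread desmoglein. Its counts were 2071 and 2317 in wild-type replicates 1 and 2 and 3763 and 3259 in knockout replicates 1 and 2. At 12.8 and 13.7 FPKM in wild type and 21.8 and 21.6 FPKM in the knockout, both knockout libraries lay above both wild-type libraries. The wild-type mean was 13.3 ± 0.688 FPKM (SD, n = 2) and the knockout mean 21.7 ± 0.181 FPKM (SD, n = 2), a log2 fold change of 0.71 (SE 0.0628) or 1.64-fold. An antisense gene, DSG2-AS1, shares 2.76% of its exonic bases and had between 0 and 11 counts per library.

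DSC2 (ENSG00000134755, chromosome 18, 31058840 to 31102522, minus strand), the desmocollin of simple epithelia and heart, was present at low level. It had 111 and 142 counts in the wild-type libraries and 261 and 301 in the knockout libraries. The levels were 0.339 and 0.417 FPKM against 0.749 and 0.986 FPKM, without overlap. DSC2 lay below the level for testing. The ratio of its summed counts, 562 over 253 after scaling by library size, was 2.27 (95% exact Clopper-Pearson interval 1.96 to 2.65, counting error only). With testing extended to 0.1 FPKM its log2 fold change was 1.18 (SE 0.165). DSG2 exceeded DSC2 per length by 37.7 and 32.9 times in wild type and by 29.1 and 21.9 times in the knockout.

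DSC3 (ENSG00000134762, chromosome 18, 30990008 to 31042815, minus strand), the desmocollin of basal stratified epithelium, had 0 counts in all 4 libraries. A count of 0 allows up to 3 counts, which corresponds to 0.0153 to 0.0174 FPKM at these depths, so no ratio is given. The desmosomal cadherin genes form a cluster of 559001 bases from DSC3 to DSG2. Of its 7 protein-coding genes, DSC3, DSG1 and DSG4 had no count and DSG3 had 1 count. DSC1 had 7 counts in all, 6 of them in wild-type replicate 2, and DSC2 and DSG2 carried the rest. The nearest tested protein-coding gene beyond DSG2, B4GALT6, a galactosyltransferase gene 73.2 kb away, also rose (log2 fold change 0.52, SE 0.0791, adjusted p = 0.000130 in edgeR's quasi-likelihood test).

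**Figure D2:**
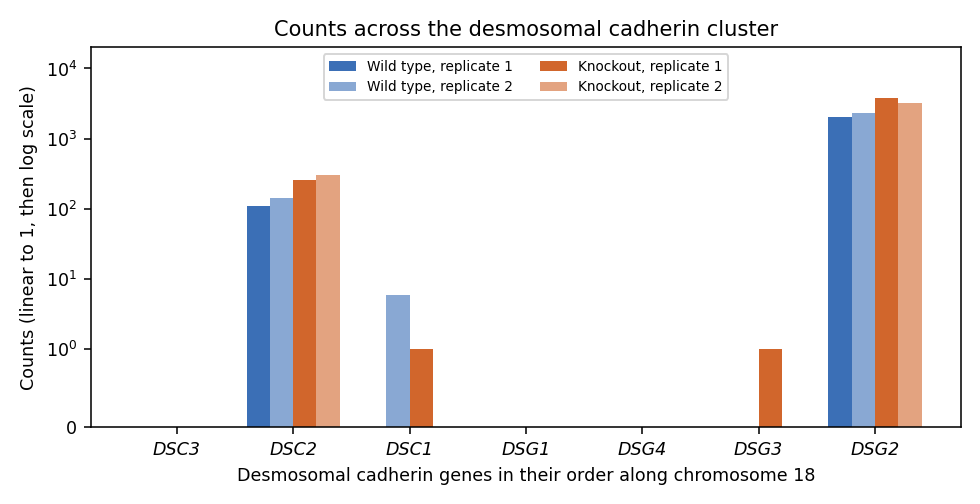
Counts of the 7 desmosomal cadherin genes, in their order along chromosome 18, in each of the 4 libraries, on an axis that is linear to 1 and logarithmic above. DSG2 has 2071 to 3763 counts and DSC2 111 to 301, while the genes between them have at most 6 in any library and DSC3 has 0.

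JUP showed the highest ratio of the tested members. JUP (ENSG00000173801, chromosome 17, 41754604 to 41786931, minus strand) encodes plakoglobin, the armadillo protein shared by desmosomes and adherens junctions and a close relative of beta-catenin. It had 295 and 348 counts in wild type and 1276 and 1049 in the knockout. The corresponding levels were 2.28 and 2.59 FPKM and 9.26 and 8.69 FPKM, so that the lowest knockout library was more than 3 times the highest wild-type library. Group means were 2.43 ± 0.217 FPKM (SD, n = 2) and 8.98 ± 0.405 FPKM (SD, n = 2), a 3.70-fold difference with a log2 fold change of 1.89 (SE 0.0927). JUP moved from percentile 18.4 of level among 10795 tested protein-coding genes in wild type to percentile 57.8 in the knockout. Its log2 fold change lay at percentile 99.4 of all tested genes, and between 1.80 and 1.97 when any library was left out.

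The balance between plakoglobin and beta-catenin transcripts differed between the groups. CTNNB1, which encodes beta-catenin of adherens junctions and Wnt signalling, averaged 18.7 ± 0.332 FPKM (SD, n = 2) for wild type and 19.4 ± 0.140 FPKM (SD, n = 2) for the knockout, and did not pass the test (log2 fold change 0.06, SE 0.0592, edgeR adjusted p = 0.429). Of the alternatives run, it passed only with the median of neighbouring genes removed, at 0.26. JUP made up 11.0% and 12.0% of the summed FPKM of both genes in the wild-type libraries and 32.2% and 31.0% in the knockout libraries. The nearest tested protein-coding genes to JUP lay on either side of zero: EIF1, a translation initiation factor gene 61.9 kb away, fell (log2 fold change -0.45, SE 0.0639, edgeR adjusted p = 7.74e-05), and P3H4, a collagen-modifying protein gene 15.02 kb away, rose (0.31, SE 0.0842, edgeR adjusted p = 0.00763).

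Plakophilins, which strengthen the lateral contacts of the plaque, were represented by PKP4, PKP3 and PKP2, with PKP1 at 0 counts. PKP2 (ENSG00000057294, chromosome 12, 32790745 to 32896840, minus strand), the plakophilin of simple epithelia and heart, was at 2.41 and 2.42 FPKM in wild type and 3.73 and 3.79 FPKM in the knockout. Its counts were 445 and 464 against 733 and 652, and its log2 fold change was 0.64 (SE 0.0879), or 1.56-fold, with replicates of each group nearly equal. PKP3 (ENSG00000184363, chromosome 11, 392614 to 404908, plus strand), found in most epithelia, was at 5.85 and 6.20 FPKM in wild type and 9.29 and 8.0 FPKM in the knockout. Its counts were 580 and 640 against 981 and 740. PKP3 was 1.44-fold higher (log2 fold change 0.53, SE 0.0923), and the knockout replicates differed from each other by a factor of 1.16, the widest replicate gap among the tested members.

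PKP4 (ENSG00000144283, chromosome 2, 158456964 to 158682879, plus strand), also called p0071, occurs at both desmosomes and adherens junctions and at the midbody of dividing cells. It was at 14.9 and 15.7 FPKM in wild type and 17.9 and 17.2 FPKM in the knockout, with 3718 and 4071 counts against 4741 and 4010. The groups did not overlap, at a log2 fold change of 0.20 (SE 0.0608) or 1.15-fold. An antisense gene, PKP4-AS1, shares 4.39% of the exonic bases of PKP4. It had 6 and 4 counts in wild type and 11 and 19 in the knockout. The 25 tested neighbours of PKP4 on each side had a median log2 fold change of 0.52, and PKP4 came to -0.31 with that median removed. Its neighbour TANC1, a scaffold protein gene 286 kb away, rose (log2 fold change 1.22, SE 0.0766, edgeR adjusted p = 7.24e-08), as did ACVR1, an activin receptor gene 581 kb away (0.65, SE 0.0847, edgeR adjusted p = 3.44e-05). PKP4 lost its call without wild-type replicate 1 (0.17), with total-count scaling (0.14) and in limma on the TPM scale (0.03). Within the plakophilins, PKP4 made up 64.3% and 64.5% of the summed FPKM in wild type and 57.8% and 59.4% in the knockout.

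The plakins differed from each other. DSP (ENSG00000096696, chromosome 6, 7541575 to 7586717, plus strand) encodes desmoplakin, the obligate link between plaque and intermediate filaments. It was at 11.5 and 12.8 FPKM in wild type and 22.0 and 21.9 FPKM in the knockout, with 3047 and 3511 counts against 6179 and 5406. Means were 12.1 ± 0.883 FPKM (SD, n = 2) and 21.9 ± 0.0252 FPKM (SD, n = 2), and DSP was 1.81-fold higher (log2 fold change 0.86, SE 0.0651). The 25 tested genes on each side of DSP had a median of -0.11. Its closest tested neighbour SNRNP48, a splicing factor gene 3.48 kb away, rose (log2 fold change 0.28, SE 0.0941, edgeR adjusted p = 0.0244), and RIOK1, a kinase gene of ribosome maturation 124 kb away on the other side, fell (-0.77, SE 0.0836, edgeR adjusted p = 8.13e-06).

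PLEC (ENSG00000178209, chromosome 8, 143915147 to 143976734, minus strand) encodes plectin, a very large linker of intermediate filaments to hemidesmosomes and other anchoring sites. It was at 98.2 and 109 FPKM in wild type and 102 and 97.6 FPKM in the knockout, and the groups overlapped. Counts were 43699 and 50337 against 48384 and 40494. The log2 fold change of -0.05 (SE 0.0742) was within its error, and it ran from -0.12 to 0.02 when any library was left out. DSP made up 10.5% of the summed FPKM of DSP and PLEC in each wild-type library, and 17.7% and 18.4% in the knockout libraries.

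PERP (ENSG00000112378, chromosome 6, 138088505 to 138107511, minus strand) encodes a tetraspan membrane protein needed for desmosome assembly and known as a target of p53 and p63. H1299 lacks p53, and TP63 had at most 3 counts in any library. PERP was the second most abundant member, and what sets its level was not tested. It was at 35.3 and 34.9 FPKM in wild type and 42.1 and 43.5 FPKM in the knockout, with 3969 and 4080 counts against 5035 and 4563. The groups did not overlap, at 1.22-fold (log2 fold change 0.29, SE 0.0605). The median of the 25 tested genes on each side was -0.14, and the nearest on each side fell: TNFAIP3, an NF-kB inhibitor gene (-0.71, SE 0.149, edgeR adjusted p = 0.00149), and ARFGEF3 (-0.48, SE 0.0854, edgeR adjusted p = 0.000398). In limma on the TPM scale PERP was at 0.12 and was no longer past the threshold.

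**Figure D3:**
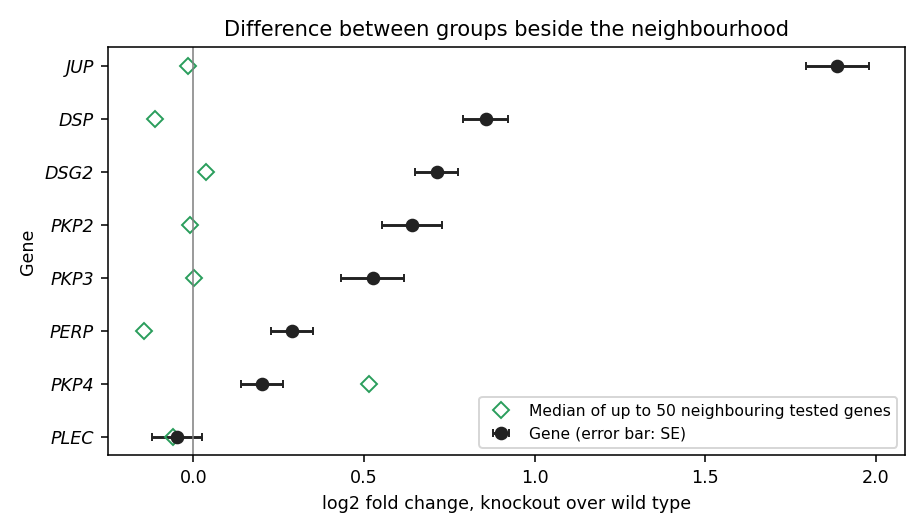
Log2 fold change, knockout over wild type, of the 8 tested members (points, error bars SE) beside the median of the up to 25 tested neighbours on each side (diamonds). JUP stands at 1.89 with neighbours near 0, PKP4 at 0.20 lies below its neighbours at 0.52, and PLEC and its neighbours lie just below 0.

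**Figure D4:**
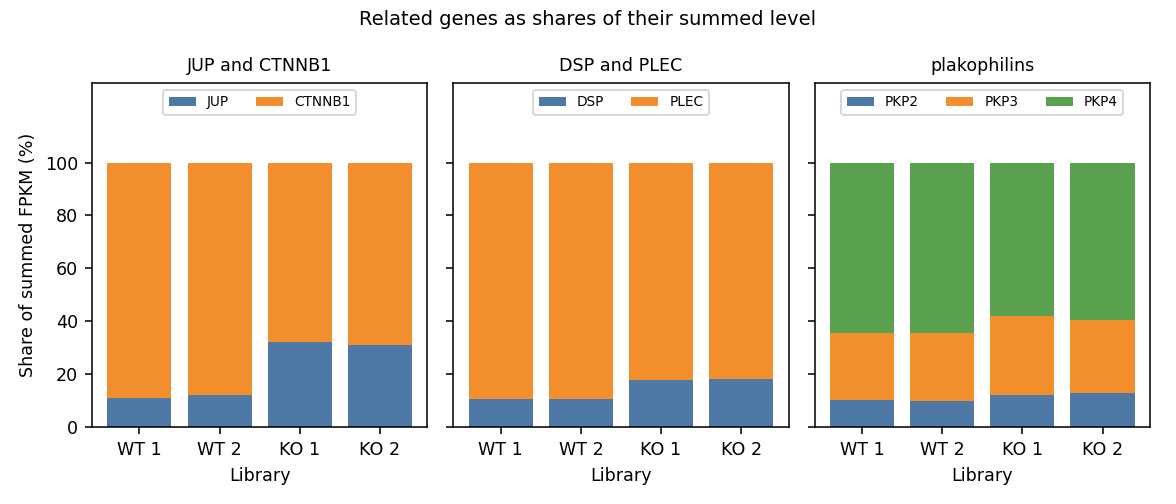
Shares of summed FPKM in each library, in percent, for JUP with CTNNB1, DSP with PLEC, and the plakophilins PKP2, PKP3 and PKP4. JUP takes 11.0% and 12.0% in wild type and 32.2% and 31.0% in the knockout, and DSP goes from 10.5% to 17.7% and 18.4%.

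The authors' deposited table gives a log2 fold change of 1.87 for JUP, 0.84 for DSP, 0.70 for DSG2, 1.18 for DSC2 and -0.06 for PLEC. It gives 0.63 for PKP2, 0.51 for PKP3, 0.28 for PERP and 0.19 for PKP4, and none for DSC3.

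Partners of the members were taken from lists of 67 genes in all, which were likewise chosen with earlier results known. Of these, 41 were tested, 23 rose, 10 fell and 8 did not pass in edgeR's quasi-likelihood test, where 50.3% of all tested genes passed. In limma on the TPM scale, which moved the log2 fold changes of all tested genes by a median of -0.16, 14 rose and 10 fell. The median log2 fold change of the 41 was 0.25.

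Of 8 other desmosome genes, PPL was the only tested gene. PPL, which encodes periplakin, a plakin that links desmosomes and filaments to the cornified envelope, had a wild-type mean of 7.91 ± 0.547 FPKM (SD, n = 2) and a knockout mean of 19.97 ± 1.05 FPKM (SD, n = 2). It rose by a log2 fold change of 1.34 (SE 0.0688, edgeR adjusted p = 1.16e-08), higher in 2 of 2 knockout libraries. Its partner EVPL (envoplakin) had 5 and 3 counts in wild type and 15 and 15 in the knockout, DSG1, DSG4 and PKP1 had 0, and CDSN had at most 5.

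Of 7 hemidesmosome genes, 5 were tested, 3 rose, 1 fell and 1 did not pass, with a median of 0.39. Both chains of the hemidesmosomal integrin rose: ITGB4 had 1743 and 1950 counts in wild type and 7453 and 6147 in the knockout (log2 fold change 1.91, SE 0.0661, edgeR adjusted p = 7.67e-10), and ITGA6 had 7110 and 8098 against 12810 and 11675 (0.72, SE 0.0664, edgeR adjusted p = 1.83e-06). DST, which encodes the plakin dystonin (BPAG1), rose by 0.39 (SE 0.0643, edgeR adjusted p = 0.000237). With the median of their neighbours removed, ITGB4 came to 1.87, ITGA6 to 0.48 and DST to 0.21, each still past the threshold. LAMB3, the beta chain of the hemidesmosomal laminin ligand, fell by 0.55 on the log2 scale (SE 0.0618, edgeR adjusted p = 1.03e-05), while the tetraspanin gene CD151 was at -0.03 and did not pass. The collagen gene COL17A1 and LAMA3 lay below the level for testing, at 0.915 and 0.329 FPKM on average in wild type and 0.777 and 0.246 FPKM in the knockout.

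Of 12 adherens junction genes, 9 were tested, 6 rose, 1 fell and 2 did not pass, with a median of 0.31. The p120-catenin family, to which the plakophilins are related, was represented by CTNND1 (log2 fold change 0.47, SE 0.0646, edgeR adjusted p = 6.00e-05) and ARVCF (0.51, SE 0.0686, edgeR adjusted p = 4.54e-05), which both rose. VCL, which encodes the actin linker vinculin, rose by 0.58 on the log2 scale (SE 0.0704, edgeR adjusted p = 2.10e-05), and NECTIN2, a nectin adhesion gene, by 0.44 (SE 0.0615, edgeR adjusted p = 6.75e-05). With the median of their neighbours removed, VCL came to 0.27, NECTIN2 to 0.33, CTNND1 to 0.40 and ARVCF to 0.42, each still past the threshold. CDH2 (N-cadherin) averaged 8.51 ± 0.0764 FPKM (SD, n = 2) for wild type and 10.5 ± 0.154 FPKM (SD, n = 2) in the knockout, while CDH1 and CDH3 had at most 6 counts in any library. In limma on the TPM scale 4 of the 9 rose and 1 fell, and CDH2 and AFDN no longer passed. AFDN also lost its call without wild-type replicate 1 (0.20), and NECTIN3, the gene that fell (-0.43), without wild-type replicate 2 (-0.28), in limma on log2 FPKM with a pseudocount of 1 (-0.30) or 0.1 (-0.41), and with the median of its neighbours removed (-0.30).

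Of 11 intermediate filament and linker genes, 6 were tested, 5 rose, 1 fell and 0 did not pass, with a median of 0.29. KRT8, the type II keratin of simple epithelia, rose by 0.74 on the log2 scale (SE 0.0657, edgeR adjusted p = 1.31e-06), from 23.9 ± 0.283 FPKM (SD, n = 2) to 39.9 ± 3.0 FPKM (SD, n = 2). KRT7 fell, with 208 and 225 counts in wild type and 85 and 57 in the knockout (log2 fold change -1.58, SE 0.175, edgeR adjusted p = 9.37e-06). With the median of their neighbours removed, KRT8 came to 0.40 and KRT7 to -1.93, both still past the threshold. KRT80, a keratin described at desmosomes (0.36, SE 0.0596, edgeR adjusted p = 0.000247), and MACF1, a plakin that joins actin and microtubules (0.35, SE 0.0698, edgeR adjusted p = 0.00103), also rose, but KRT80 came to 0.06 with the median of its neighbours removed and MACF1 did not pass in limma on the TPM scale (0.18). KRT18 (0.23) and VIM (0.23) were past the threshold, but in limma on the TPM scale both were at 0.06 and neither passed, and without wild-type replicate 2 neither passed, at 0.19 and 0.18. VIM also did not pass with total-count scaling (0.16). KRT18 was at -0.13 with the median of its neighbours removed. The keratins of stratified epithelium KRT5, KRT14 and KRT17 had 0 counts.

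Of 13 transcription factors of epithelial and mesenchymal states, 5 were tested, 2 rose, 2 fell and 1 did not pass, with a median of 0.01. KLF5, an epithelial zinc finger factor, rose by 0.70 on the log2 scale (SE 0.123, edgeR adjusted p = 0.000371). TWIST1, a mesenchymal factor, fell by 0.70 (SE 0.128, edgeR adjusted p = 0.000517), and KLF4, another epithelial factor, fell by 0.49 (SE 0.0725, edgeR adjusted p = 9.39e-05). ZEB2, a repressor of epithelial junction genes, was past the threshold at 0.28 (SE 0.0885, edgeR adjusted p = 0.0164), but not without wild-type replicate 2 (0.24) or knockout replicate 2 (0.20), with total-count scaling (0.22) or in any limma fit (0.09 to 0.26), and it was at -0.25 with the median of its neighbours removed. ZEB1 was at 0.01 and did not pass. The Snail genes did not reach the level for testing. SNAI1 had 31 and 42 counts in wild type and 51 and 34 in the knockout, and SNAI2 had 24 and 16 against 4 and 6. GRHL2 and OVOL1, epithelial factors, had 0 counts, and TP63 and GRHL3 had at most 4 in any library. OVOL2 had at most 8, and GRHL1 averaged 0.348 FPKM in wild type and 0.382 FPKM in the knockout, also below the level for testing.

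Of 5 genes of the PMP22 family and relatives of PERP, 4 were tested, 2 rose, 1 fell and 1 did not pass, with a median of 0.18. EMP2 rose by 0.82 on the log2 scale (SE 0.107, edgeR adjusted p = 3.70e-05) and EMP1 fell by 0.50 (SE 0.0615, edgeR adjusted p = 2.37e-05). EMP3 was past the threshold at 0.25 (SE 0.0628, edgeR adjusted p = 0.00495), though not without wild-type replicate 2 (0.20) or in limma on the TPM scale (0.08), and PMP22 was at 0.12 (edgeR adjusted p = 0.215). With the median of neighbouring genes removed, EMP1 came to -0.06 and EMP3 to 0.16, neither past the threshold. TMEM47, a related tetraspan gene, had 6 and 14 counts in wild type and 0 in both knockout libraries.

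**Figure D5:**
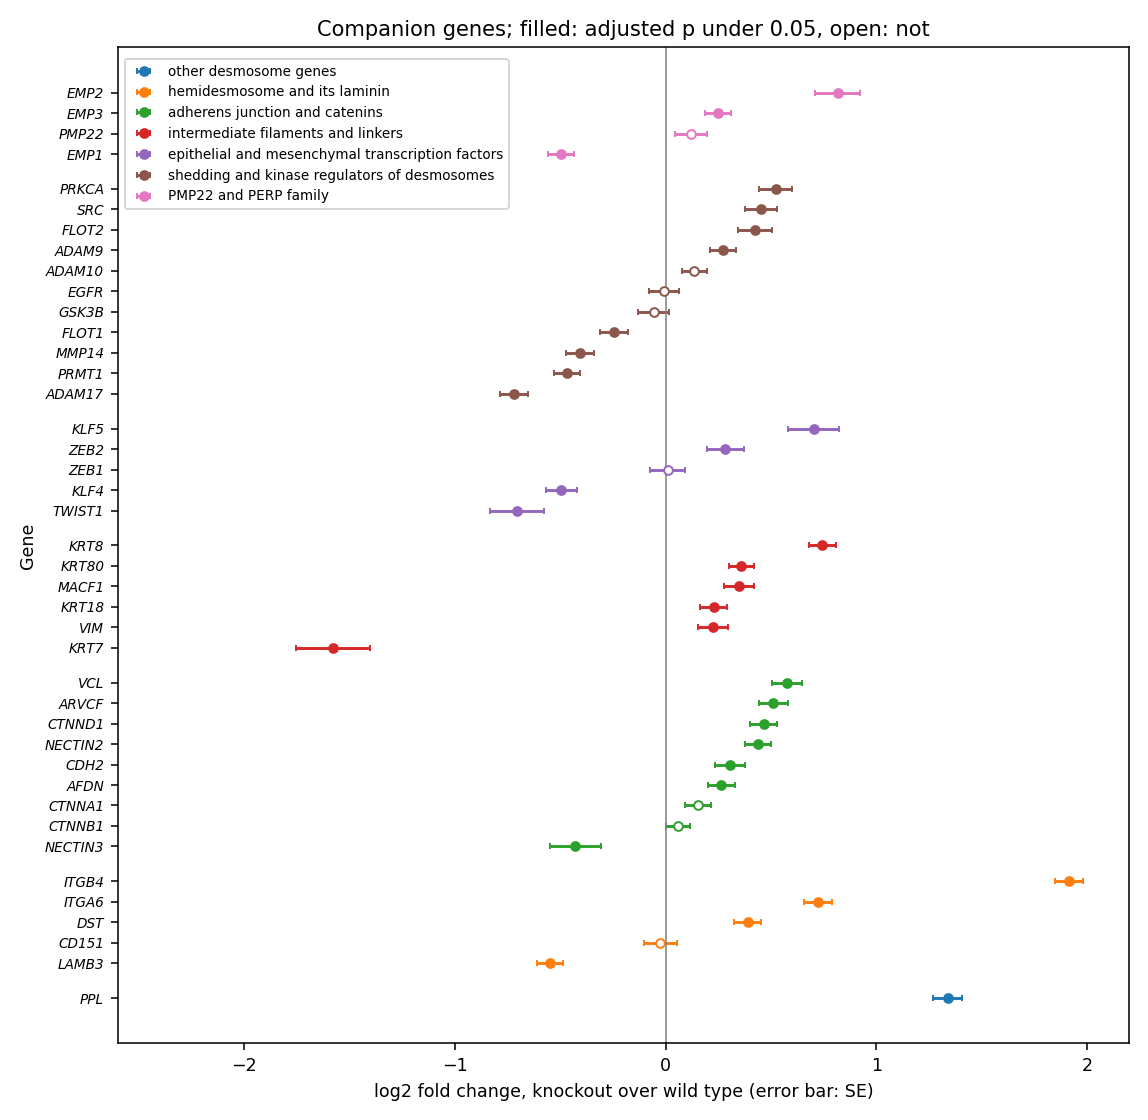
Log2 fold change, knockout over wild type, with SE, of the 41 tested companion genes grouped by list, filled where edgeR's adjusted p was under 0.05. ITGB4 (1.91) and PPL (1.34) stand farthest to the right and KRT7 (-1.58) farthest to the left.

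The genes whose profile over the 4 libraries was most like that of JUP were found by the Euclidean distance of centred log2 CPM among the other 6715 tested protein-coding genes that averaged 5 FPKM or more. The nearest was ITGB4 (distance 0.0611), followed by the follistatin-like gene FSTL1 (0.159), the zinc finger gene SALL3 (0.181), the N-glycan branching enzyme gene MGAT5 (0.232) and the focal adhesion gene TNS2 (0.320). These 5 genes were 3.04-fold to 3.84-fold higher in the knockout, beside 3.70-fold for JUP. With only 4 libraries, the distance mostly compares the differences between groups. Similar folds therefore follow from how the genes were picked, and shared regulation was not tested.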

How the data were processed

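RNA sequencing libraries (TruSeq RNA kit, total RNA, per the labels' protocols) were made from H1299 cells. The submitters' processing notes name HISAT2 2.0.5 and hg38. The read counter, its strand setting and its annotation are not stated in the labels or headers used here. The authors deposited a table of raw counts per gene and library, FPKM values scaled to sizes of 0.965 to 1.02 of the total, gene lengths, and a mean scaled signal per group, which was not used. It also holds the authors' deposited log2 fold change and p-value, from an unnamed test. All 10 members have the coordinates of GENCODE 29, which gave exon overlaps.

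Counts of genes with 1 FPKM or more in 2 or more of the 4 libraries were tested with edgeR 4.0.16 (R 4.3.3; quasi-likelihood, TMM factors 0.978 to 1.02, two-sided, Benjamini-Hochberg over 13079 genes, threshold 0.05). SE was derived from that test, as the size of the log2 fold change divided by the square root of its F statistic. An exact permutation of 2 against 2 cannot give p under 0.333. Alternatives were DESeq2 1.42.0, limma 3.58.1 (log2 of FPKM plus 1 or 0.1, or of FPKM rescaled to TPM plus 1), other filters and scalings, left-out libraries (the lone library is assumed to vary like the others), a replicate block and removal of the median of 25 neighbours on each side. Totals without mitochondrial genes were added after seeing the data. The fits were tested on simulated data.

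The members and lists were chosen with earlier results of these data known. Named genes are TTC28, the members, up to 4 genes of smallest p per list and any called gene of at least 2-fold, the 5 genes nearest JUP in profile, and the nearest tested protein-coding genes beside a member, some left out. The other list genes named were chosen after their values were seen. Another 2 list genes are not reported and enter no count; list genes not named enter the counts.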

Additional observations from a re-analysis of the deposited data

How the results depend on the processing

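The count of genes called was 6581 and stayed within 1.5 times under each setting but a minimum of 5 FPKM, where fewer genes were tested and 4346 were called; over left-out libraries it ran from 4854 to 6456. Calls among the members numbered 5 to 8 and among companions 24 to 37 over all settings. The lowest counts came in limma on the TPM scale, where 6199 of the 13079 tested genes were called. The highest came with no filter, where more genes were tested and 7972 were called. Nothing is read from these counts. In limma on the TPM scale, 25.5% of all calls were higher, against 49.2% in limma on FPKM with the same pseudocount and 49.9% in edgeR; for companions the shares were 58.3%, 71.0% and 69.7%. With the neighbours' median removed, PKP4 came to -0.31 and ZEB2 to -0.25, both past the threshold in the opposite direction; ADAM17 came to -0.01. Deviations of same-numbered libraries were not correlated over the genes (-0.0014), which cannot show whether those libraries were prepared together. A replicate block gave 7108 calls among the 13079 tested genes, 7 among the 8 tested members and 34 among the 41 tested companions. Among the members, DSC2 and DSC3 had the fewest counts. DSC2, with 111 to 301 counts per library over 12495 exonic bases, missed the level of 1 FPKM.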

Other observations

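Regulators of desmosome turnover changed in both directions. Of 11 genes of shedding proteases, kinases and adaptors, all tested, 4 rose, 4 fell and 3 did not pass in edgeR's quasi-likelihood test, with a median log2 fold change of -0.01 beside -7.07e-05 for all tested genes. PRKCA, the protein kinase C isoform that lowers desmosomal adhesion, rose by 0.52 on the log2 scale (SE 0.0780, edgeR adjusted p = 0.000107), at 3.97 FPKM on average in wild type and 5.69 FPKM in the knockout. ADAM17, a sheddase of DSG2, fell by 0.72 (SE 0.0662, edgeR adjusted p = 1.85e-06), but came to -0.01 with the median of its neighbours on chromosome 2 removed. MMP14, a membrane-bound metalloproteinase gene, fell by 0.40 (SE 0.0664, edgeR adjusted p = 0.000229) and came to -0.12 in the same way. The protease gene ADAM9 rose by 0.27 (SE 0.0616, edgeR adjusted p = 0.00252). It was at 0.22 without wild-type replicate 1 and did not pass in limma on the TPM scale (0.10). ADAM10, another protease gene, was at 0.14 and did not pass (edgeR adjusted p = 0.0779). PRMT1, an arginine methyltransferase gene, fell by 0.47 (SE 0.0611, edgeR adjusted p = 3.62e-05). EGFR was at -0.01 (edgeR adjusted p = 0.946), and at 0.32 with its neighbours' median removed, where it was past the threshold. In limma on the TPM scale 2 of the 11 rose and 4 fell.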
